A study of Homo sapiens with 12 samples.

Results

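Nuclear export was followed here through 10 genes: the exportin genes XPO1, CSE1L, XPOT, XPO5, XPO4, XPO6 and XPO7, and the genes RAN, RANBP1 and RANGAP1 of the RAN cycle. They were taken by name from a table of 78930 genes. All 10 were among the 24064 genes that passed the filter on low counts, and the members had between 2540 and 34065 counts in every library. RNA was sequenced from OCI-AML3, a human acute myeloid leukaemia cell line with NPM1c, the mutant nucleophosmin that resides in the cytoplasm. In all 4 groups the labels give the genotype NPM1c-degron, in which the mutant protein carries a tag that the small molecule dTAG-13 marks for degradation, so the controls carry the tag too. Cells were transduced with lentivirus, received 500 nM dTAG-13 or its solvent 48 hours later, and were sorted for mCherry after another 24 hours.

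The dTAG mCherry group received mCherry alone and dTAG-13. The dTAG FL-NPM1c group received full-length NPM1c with dTAG-13, and the dTAG C-body null group received the construct named C-body null, whose sequence change the labels do not give, with dTAG-13. The NTC DMSO group received the solvent by its titles, although its treatment label reads dTAG, and its labels name no construct and do not spell out NTC. Each group had 3 libraries. Nothing in the labels ties them to separate cultures, so the spread between them may be technical. The p-values reflect only that spread, estimated within all 4 groups together and with information shared between genes. In bulk RNA of sorted cells, fewer cells of a type and less RNA per cell cannot be told apart.

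Exportins carry cargo out of the nucleus together with RAN bound to GTP. In the cytoplasm RANGAP1 and RANBP1 bring about hydrolysis of that GTP, the complex falls apart, and RCC1 on chromatin reloads RAN with GTP in the nucleus. XPO1 is known for carrying proteins with leucine-rich export signals, and NPM1c owes its cytoplasmic place in this leukaemia to an added signal of that kind.

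Promoter sequences are shown for RAN and CSE1L, the members with the highest levels per kilobase, which fell in all 3 comparisons with NTC DMSO, and for XPO1, the carrier of NPM1c. RefSeq windows of 300 bases on GRCh38.p14, from 250 bases before to 50 after a gene start, were used for 8 of the 10 genes. No window of RANBP1 or XPO7 is among them. Sequences run 5′ to 3′ on the gene's strand. Capitals mark the E-box CACGTG and the CCAAT box (CCAAT, or ATTGG where it lies on the other strand), and the 3 motifs do not overlap one another in these 4 windows. The windows are RAN at chr12:130871816-130872115 (plus strand), CSE1L at chr20:49046062-49046361 (plus strand), and XPO1 at chr2:61538307-61538606 (start 1) and chr2:61537038-61537337 (start 2), both on the minus strand.
RAN: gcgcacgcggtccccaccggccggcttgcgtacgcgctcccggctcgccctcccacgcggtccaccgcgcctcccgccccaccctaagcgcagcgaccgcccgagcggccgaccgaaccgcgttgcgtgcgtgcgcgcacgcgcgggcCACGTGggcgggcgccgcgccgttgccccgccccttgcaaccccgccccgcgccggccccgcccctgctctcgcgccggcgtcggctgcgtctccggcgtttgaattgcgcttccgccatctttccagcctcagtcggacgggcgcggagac
CSE1L: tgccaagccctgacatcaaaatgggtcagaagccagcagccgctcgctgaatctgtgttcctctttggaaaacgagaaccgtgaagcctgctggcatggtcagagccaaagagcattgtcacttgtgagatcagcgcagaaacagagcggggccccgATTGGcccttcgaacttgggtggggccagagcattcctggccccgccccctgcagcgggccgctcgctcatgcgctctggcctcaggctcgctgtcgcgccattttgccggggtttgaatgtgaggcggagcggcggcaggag
XPO1 start 1: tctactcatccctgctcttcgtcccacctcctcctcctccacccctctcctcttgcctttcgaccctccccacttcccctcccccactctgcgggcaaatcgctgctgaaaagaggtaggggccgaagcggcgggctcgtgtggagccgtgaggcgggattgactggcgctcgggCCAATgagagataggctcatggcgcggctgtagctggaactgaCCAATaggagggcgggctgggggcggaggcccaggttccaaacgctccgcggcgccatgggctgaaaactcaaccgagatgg
XPO1 start 2: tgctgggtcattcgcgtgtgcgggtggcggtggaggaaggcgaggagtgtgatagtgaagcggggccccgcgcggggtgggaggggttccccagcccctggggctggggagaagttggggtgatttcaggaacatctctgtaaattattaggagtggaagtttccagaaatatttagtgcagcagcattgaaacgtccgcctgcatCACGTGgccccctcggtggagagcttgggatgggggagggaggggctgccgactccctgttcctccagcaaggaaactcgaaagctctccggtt
The E-box occurred in 2 of the 11 windows of these genes, that of RAN and that of XPO1 start 2, and in 7.26% of 35116 RefSeq windows of the same length. The CCAAT box occurred in 5 of the 11 windows and in 34.6% of all windows. Among those 5, the windows of XPO4 overlap and hold the same site. The ETS core CCGGAAG, also searched on both strands, occurred in 2 of the 11, those of XPOT and XPO6, and in 10.3% of all windows. A match of these letters describes the sequence and does not show that a factor binds there.

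The 12 libraries held between 30519165 and 59925564 counts, and mitochondrial transcripts took 6.83% to 9.63% of them. Levels are given as CPM, the counts scaled to a common library total after TMM correction. NPM1, whose protein product was targeted, is a check of the constructs rather than of degradation, because dTAG-13 acts on protein. Its level was 1430 ± 117 CPM (SD, n = 3) in NTC DMSO, 1252 ± 171 CPM in dTAG mCherry, 1651 ± 38.9 CPM in dTAG FL-NPM1c and 1922 ± 21.7 CPM in dTAG C-body null. NTC DMSO replicate 3 and dTAG mCherry replicate 2 stood apart from their groups, and the counts of calls are also given without both. In those counts dTAG mCherry replicate 3 was kept. Its median distance from its group mates over the 10 genes, 0.167 on the log2 scale, equalled that of replicate 2. It also had the lowest total, 30519165 counts, and the highest mitochondrial share, 9.63%. Markers of the line were present (CD33, ANPEP, SPI1 and CEBPA at 55.2 to 249 CPM), MPO reached at most 3.09 CPM, and KIT was at 0 in all libraries. HOXA9 (27.9 to 65.6 CPM) and MEIS1 (7.89 to 24.1 CPM), genes whose high level is known for this kind of leukaemia, were called lower in all 3 comparisons with NTC DMSO, and SPI1 and ANPEP higher.

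CSE1L, RAN and RANBP1 were lower in each of the 3 groups given dTAG-13 than in NTC DMSO, XPO1, XPOT and XPO5 in 2 of them and XPO4 and XPO7 in 1, and no member was higher. A gene was called where edgeR's quasi-likelihood test gave an adjusted p under 0.05. In dTAG mCherry against NTC DMSO, 4 of the 10 fell (XPO5, CSE1L, RAN and RANBP1) and 0 rose, where 9.69% of all genes tested fell and 12.9% rose. In dTAG FL-NPM1c against NTC DMSO, 8 of 10 fell, all but XPO6 and RANGAP1, and 0 rose, where 13.3% of all genes fell and 14.6% rose. In dTAG C-body null against NTC DMSO, 5 of 10 fell (XPO1, XPOT, CSE1L, RAN and RANBP1) and 0 rose, where 12.4% of all genes fell and 14.1% rose. The median log2 difference of the 10 genes was -0.26, -0.31 and -0.23 in these comparisons, beside -0.00, 0.02 and -0.00 over all genes. The 3 comparisons share the NTC DMSO libraries and are therefore not independent. With both libraries that stood apart removed, 5, 8 and 5 of the 10 were called lower and 0 higher, where 9.77%, 19.9% and 17.0% of all genes were lower. In these comparisons dTAG-13 and, as far as the labels go, the construct changed together and cannot be told apart.

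Against dTAG mCherry, the group that also received dTAG-13, few of the genes differed. In dTAG FL-NPM1c against dTAG mCherry 1 of 10 rose (RANGAP1) and 0 fell, where 7.58% of all genes rose and 7.95% fell. In dTAG C-body null against dTAG mCherry 0 of 10 were called, where 0.216% of all genes rose and 0.378% fell. An unadjusted p under 0.05 was reached there by 2 genes, and DESeq2 also called 0. Between dTAG FL-NPM1c and dTAG C-body null 0 of 10 were called by edgeR or DESeq2 and 0 had an unadjusted p under 0.05, where 4.82% of all genes rose and 4.86% fell. The median log2 difference of the 10 genes was -0.03, -0.03 and -0.04 in these comparisons. These counts depended on the libraries that stood apart. With both removed, 4 of the 10 were called for FL-NPM1c against dTAG mCherry (2 higher, 2 lower), where 15.4% of all genes were higher and 18.7% lower. For C-body null against dTAG mCherry 3 were called (2 higher, 1 lower), where 7.48% of all genes were higher and 8.68% lower. Between the constructs 1 was called lower in dTAG FL-NPM1c, where 7.27% of all genes were higher and 9.48% lower.

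**Figure D1:**
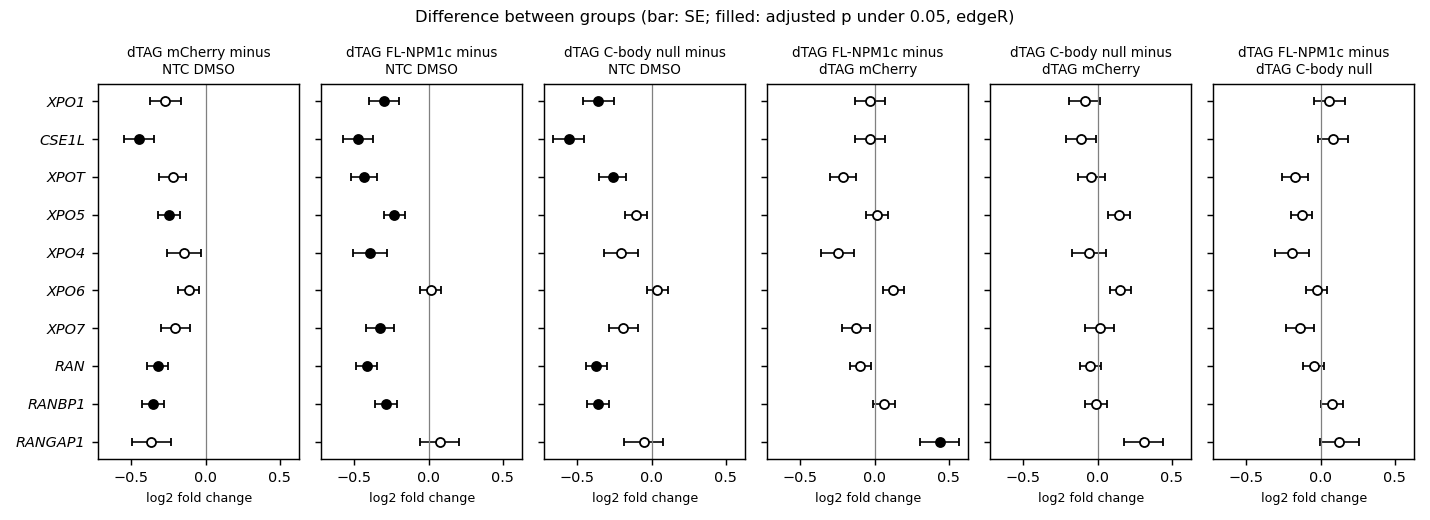
Log2 fold change (x axis) of each of the 10 genes in the 6 comparisons, with bars of 1 standard error and filled points where the edgeR adjusted p was under 0.05. Filled points lie left of 0 in the 3 panels against NTC DMSO, and the only filled point elsewhere is RANGAP1 in dTAG FL-NPM1c against dTAG mCherry.

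Per kilobase of exon, the order of levels was nearly the same in every group. RAN was highest, at 160 CPM per kb in NTC DMSO and 119 to 128 in the others, and CSE1L was next, at 92.7 and then 63.0 to 68.0 CPM per kb. The libraries of RAN, CSE1L and the third gene did not overlap in any group. RANBP1, XPO1 and XPOT followed, except for XPOT in dTAG FL-NPM1c. In NTC DMSO the libraries of XPO1 overlapped with those of both others, while RANBP1 (46.5 to 47.9 CPM per kb) lay above XPOT (37.0 to 44.0 CPM per kb). In dTAG mCherry and dTAG C-body null all 3 overlapped, so their order is not resolved there, and RANBP1 and XPO1 overlapped in dTAG FL-NPM1c as well. In dTAG FL-NPM1c the libraries of RANGAP1 (33.2 to 33.9 CPM per kb) lay above those of XPOT (29.8 to 32.7 CPM per kb). XPO5, XPO7 and XPO4 closed the order in every group without overlap, XPO4 at 6.17 to 8.12 CPM per kb. These values use the union of annotated exons, so a gene with many unused exons is understated.

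XPO1, the main carrier of proteins with leucine-rich signals, lies at 61477849 to 61538626 on chromosome 2, minus strand (GRCh38, ENSG00000082898). Its level in replicates 1, 2 and 3 was 573, 558 and 456 CPM in NTC DMSO, and 439, 396 and 480.1 CPM in dTAG mCherry. It was 387, 431 and 472 CPM in dTAG FL-NPM1c and 435, 430 and 373 CPM in dTAG C-body null. Replicates 1 and 2 of NTC DMSO were above all other libraries, while its replicate 3 lay within the ranges of dTAG mCherry and dTAG FL-NPM1c. XPO1 fell by 0.36 ± 0.10 (SE) on the log2 scale in dTAG C-body null (edgeR adjusted p = 0.016) and by 0.30 ± 0.10 in dTAG FL-NPM1c (adjusted p = 0.039). In dTAG mCherry the estimate was -0.27 ± 0.10 and was not called (adjusted p = 0.069). The dTAG FL-NPM1c call ended with library totals alone (adjusted p = 0.057) and without NTC DMSO replicate 1 or 2 or dTAG FL-NPM1c replicate 1 or 2 (adjusted p = 0.16, 0.12, 0.15 and 0.095). The dTAG C-body null call ended without NTC DMSO replicate 1 or 2 or dTAG C-body null replicate 3 (adjusted p = 0.081, 0.083 and 0.10), and without NTC DMSO replicate 3 or dTAG mCherry replicate 3 the dTAG mCherry difference passed (adjusted p = 0.012 and 0.030). It also passed without the low-count filter (adjusted p = 0.0031) and by DESeq2 (adjusted p = 0.043).

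Among the groups given dTAG-13 no difference in XPO1 was called. The estimate was -0.03 ± 0.10 for dTAG FL-NPM1c and -0.09 ± 0.10 for dTAG C-body null against dTAG mCherry (edgeR adjusted p = 0.88 and 0.73), and 0.06 ± 0.10 for dTAG FL-NPM1c against dTAG C-body null (adjusted p = 0.77).

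CSE1L, the exportin that returns importin alpha to the cytoplasm, showed the largest drop of the 10 genes in all 3 comparisons with NTC DMSO. It lies at 49046246 to 49096960 on chromosome 20, plus strand (ENSG00000124207). Its level was 383, 370.0 and 304 CPM in NTC DMSO, 261, 219.7 and 295 in dTAG mCherry, 247, 248 and 265 in dTAG FL-NPM1c, and 249, 241 and 228 in dTAG C-body null. All 3 NTC DMSO libraries lay above the other 9, though NTC DMSO replicate 3 and dTAG mCherry replicate 3 were close. CSE1L fell by 0.45 ± 0.10 in dTAG mCherry (edgeR adjusted p = 0.0042), by 0.48 ± 0.10 in dTAG FL-NPM1c (adjusted p = 0.0027) and by 0.56 ± 0.10 in dTAG C-body null (adjusted p = 0.00061). On a linear scale CSE1L fell by 26.7%, fell by 28.1% and fell by 32.1%. The calls held under each of 12 other settings per comparison, among them every library of the compared groups left out in turn, with adjusted p up to 0.037. Against dTAG mCherry the estimates were -0.03 ± 0.10 for dTAG FL-NPM1c and -0.11 ± 0.10 for dTAG C-body null, neither called (adjusted p = 0.88 and 0.66). With both libraries that stood apart removed, CSE1L fell by 0.23 in dTAG C-body null against dTAG mCherry (adjusted p = 0.028).

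**Figure D2:**
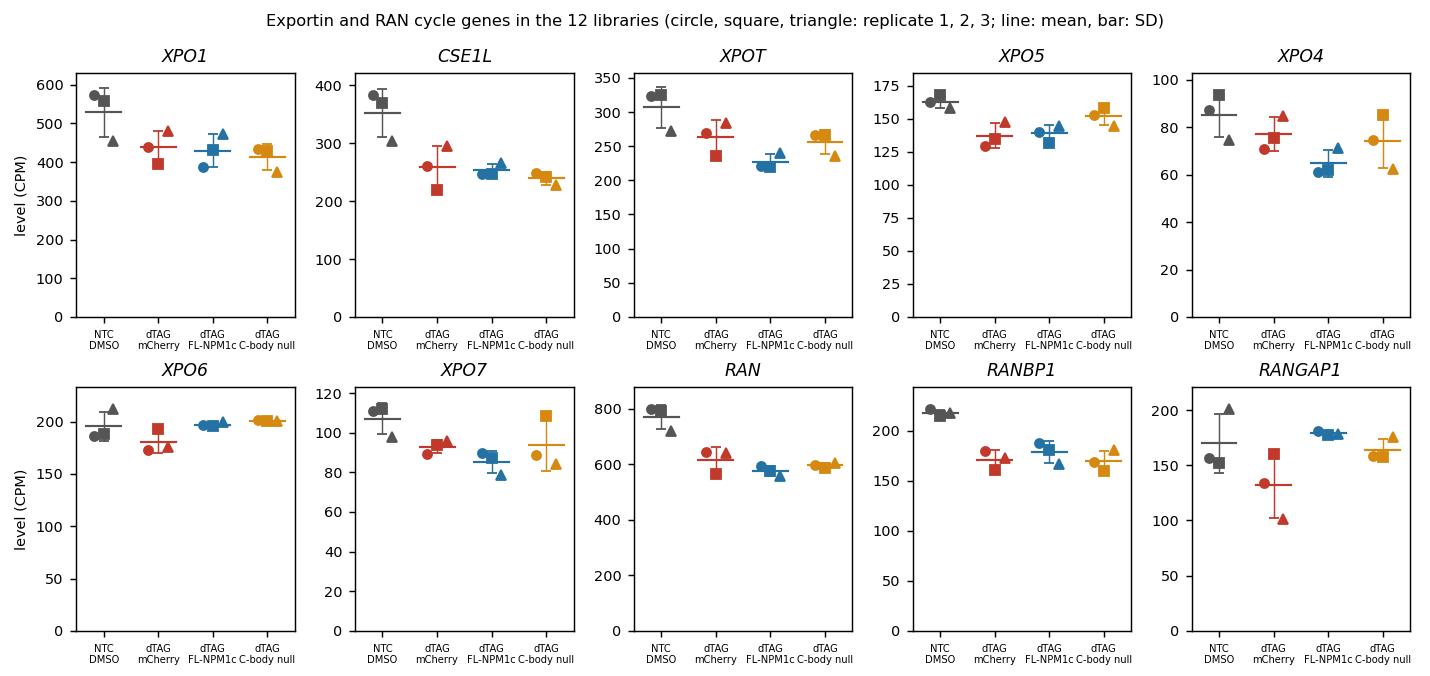
Level (y axis, CPM) of each gene in the 12 libraries by group, with the mean as a line and the SD as a bar. The 3 NTC DMSO libraries lie above the other 9 for CSE1L, RAN, RANBP1 and, narrowly, XPO5, while for XPO6 the groups are close and for RANGAP1 the dTAG mCherry libraries spread from 101 to 160 CPM.

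XPOT, which exports transfer RNA, lies at 64404350 to 64451127 on chromosome 12, plus strand (ENSG00000184575). Its level was 324, 324 and 273 CPM in NTC DMSO, 269.8, 236 and 284 in dTAG mCherry, 222, 219 and 241 in dTAG FL-NPM1c, and 266, 266 and 235 in dTAG C-body null. The dTAG FL-NPM1c libraries lay clear of NTC DMSO, and dTAG mCherry replicate 3 reached into the range of NTC DMSO. XPOT fell by 0.43 ± 0.09 in dTAG FL-NPM1c against NTC DMSO (edgeR adjusted p = 0.0022), which held under all 12 other settings, and by 0.26 ± 0.09 in dTAG C-body null (adjusted p = 0.040). The latter call ended without any 1 of 5 libraries, NTC DMSO replicate 1 or 2 or any dTAG C-body null replicate (adjusted p between 0.064 and 0.20). In dTAG mCherry the estimate was -0.22 ± 0.09 (adjusted p = 0.089), and it passed without NTC DMSO replicate 3 (adjusted p = 0.021) or dTAG mCherry replicate 3 (adjusted p = 0.045) and without the low-count filter (adjusted p = 0.026).

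For XPOT the difference between dTAG FL-NPM1c and dTAG mCherry was -0.21 ± 0.09, not called (edgeR adjusted p = 0.12), and that between dTAG FL-NPM1c and dTAG C-body null was -0.17 ± 0.09 (adjusted p = 0.25). Without dTAG mCherry replicate 2 the former passed at -0.29 (adjusted p = 0.020). After removal of both libraries that stood apart these were -0.32 (adjusted p = 0.0022) and -0.19 (adjusted p = 0.042), and both passed.

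XPO5, the carrier of microRNA precursors, lies at 43522330 to 43576075 on chromosome 6, minus strand (ENSG00000124571). Its level was 162, 168 and 158 CPM in NTC DMSO, 129, 134 and 148 in dTAG mCherry, 140.1, 132 and 144 in dTAG FL-NPM1c, and 152, 158 and 144 in dTAG C-body null. NTC DMSO lay above the other groups in all libraries, but the gap to dTAG C-body null was small. XPO5 fell by 0.25 ± 0.07 in dTAG mCherry (edgeR adjusted p = 0.022) and by 0.23 ± 0.07 in dTAG FL-NPM1c (adjusted p = 0.028), and the estimate in dTAG C-body null was -0.10 ± 0.07 (adjusted p = 0.34). The dTAG mCherry call ended without NTC DMSO replicate 1 or 2 or dTAG mCherry replicate 1 (adjusted p = 0.056, 0.12 and 0.13) and with only these groups in the fit (adjusted p = 0.14). The dTAG FL-NPM1c call ended without NTC DMSO replicate 1 or 2 or dTAG FL-NPM1c replicate 1 or 2 (adjusted p = 0.074, 0.085, 0.061 and 0.13).

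For XPO5 no difference between the constructs was called, with -0.13 ± 0.07 for dTAG FL-NPM1c against dTAG C-body null (edgeR adjusted p = 0.30). Against dTAG mCherry the estimates were 0.02 ± 0.07 for dTAG FL-NPM1c (adjusted p = 0.89) and 0.15 ± 0.07 for dTAG C-body null (adjusted p = 0.44).

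XPO4, a carrier known for both export and import, had the lowest level of the 10 genes in every group. It lies at 20777329 to 20903048 on chromosome 13, minus strand (ENSG00000132953). Its level was 87.4, 93.5 and 74.9 CPM in NTC DMSO, 70.7, 75.7 and 84.9 in dTAG mCherry, 61.0, 62.1 and 71.2 in dTAG FL-NPM1c, and 74.6, 85.1 and 62.5 in dTAG C-body null. Only dTAG FL-NPM1c lay wholly below NTC DMSO. XPO4 fell there by 0.40 ± 0.11 (edgeR adjusted p = 0.017), a call that ended without NTC DMSO replicate 1 or 2 or dTAG FL-NPM1c replicate 1 or 2 (adjusted p between 0.057 and 0.070). The estimates in dTAG mCherry and dTAG C-body null were -0.15 ± 0.11 and -0.20 ± 0.11 (adjusted p = 0.40 and 0.21). Against dTAG mCherry they were -0.25 ± 0.11 for dTAG FL-NPM1c and -0.06 ± 0.11 for dTAG C-body null (adjusted p = 0.15 and 0.85).

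XPO7, a broad-spectrum exportin with a known role in the shedding of the red cell nucleus, lies at 21919671 to 22006585 on chromosome 8, plus strand (ENSG00000130227). Its level was 111, 112 and 97.9 CPM in NTC DMSO, 89.2, 93.7 and 95.9 in dTAG mCherry, 89.6, 87.1 and 78.9 in dTAG FL-NPM1c, and 88.8, 109 and 84.1 in dTAG C-body null. All libraries of dTAG mCherry and dTAG FL-NPM1c were below NTC DMSO, and replicate 2 of dTAG C-body null was not. XPO7 fell by 0.33 ± 0.10 in dTAG FL-NPM1c (edgeR adjusted p = 0.017), and the call ended without NTC DMSO replicate 1 or 2 or dTAG FL-NPM1c replicate 3 (adjusted p = 0.069, 0.053 and 0.073). In dTAG mCherry and dTAG C-body null the estimates were -0.20 ± 0.10 and -0.19 ± 0.10 (adjusted p = 0.14 and 0.16), and without dTAG C-body null replicate 2 the latter passed at -0.31 (adjusted p = 0.030). The estimates against dTAG mCherry were -0.13 ± 0.10 for dTAG FL-NPM1c and 0.01 ± 0.10 for dTAG C-body null (adjusted p = 0.39 and 0.96).

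XPO6, the exportin of actin with profilin, was called in none of the 6 comparisons. It lies at 28097979 to 28211920 on chromosome 16, minus strand (ENSG00000169180). Its level was 186, 188 and 212 CPM in NTC DMSO, 173, 193 and 176 in dTAG mCherry, 196.5, 196 and 199 in dTAG FL-NPM1c, and 201, 201 and 200.5 in dTAG C-body null. The add-back libraries were tightly grouped, above those of dTAG mCherry and inside the range of NTC DMSO. The estimates against dTAG mCherry were 0.13 ± 0.07 for FL-NPM1c and 0.15 ± 0.07 for C-body null (edgeR adjusted p = 0.24 and 0.42). They became 0.14 and 0.19 without both libraries that stood apart, and both passed (adjusted p = 0.032 and 0.018). Against NTC DMSO the estimate was -0.11 ± 0.07 in dTAG mCherry, 0.01 ± 0.07 for FL-NPM1c and 0.04 ± 0.07 for C-body null (adjusted p = 0.29, 0.91 and 0.73).

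RAN, the small GTPase whose GTP-bound form loads every exportin, was lower in all 9 libraries given dTAG-13 than in any NTC DMSO library. It lies at 130871879 to 130877678 on chromosome 12, plus strand (ENSG00000132341). Its level was 797, 792 and 719 CPM in NTC DMSO, 643, 564 and 640.3 in dTAG mCherry, 593, 576 and 559 in dTAG FL-NPM1c, and 596, 585 and 603 in dTAG C-body null. RAN fell by 0.32 ± 0.07 in dTAG mCherry, by 0.42 ± 0.07 in dTAG FL-NPM1c and by 0.37 ± 0.07 in dTAG C-body null (edgeR adjusted p = 0.0033, 0.00045 and 0.00088). On a linear scale RAN fell by 25.1% with FL-NPM1c and fell by 22.7% with C-body null. The calls held under all 12 other settings except in dTAG mCherry with only these groups in the fit (adjusted p = 0.059).

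Against dTAG mCherry the RAN estimate was -0.10 ± 0.07 for FL-NPM1c and -0.05 ± 0.07 for C-body null (edgeR adjusted p = 0.37 and 0.79). RAN fell there by 0.19 with FL-NPM1c (adjusted p = 0.0055) once both libraries that stood apart were removed. The difference between dTAG FL-NPM1c and dTAG C-body null was -0.05 ± 0.07 (adjusted p = 0.73).

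RANBP1, the cofactor that helps to release RAN from export complexes, was the steadiest gene in NTC DMSO, with an SD of 1.46% of its mean. It lies at 20115938 to 20127357 on chromosome 22, plus strand (ENSG00000099901). Its level was 221, 215 and 217 CPM in NTC DMSO, 179, 160.4 and 172 in dTAG mCherry, 188, 181 and 167 in dTAG FL-NPM1c, and 169, 159 and 181 in dTAG C-body null. No library of the other groups reached the NTC DMSO range. RANBP1 fell by 0.35 ± 0.07 in dTAG mCherry, by 0.29 ± 0.07 in dTAG FL-NPM1c and by 0.36 ± 0.07 in dTAG C-body null (edgeR adjusted p = 0.0025, 0.0091 and 0.0016), and each call held under all 12 other settings (adjusted p up to 0.048). Between the 3 groups given dTAG-13 the estimates ranged from -0.01 to 0.07, and none was called.

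RANGAP1, the activator of GTP hydrolysis by RAN, was the only one of the 10 genes called between groups given dTAG-13. It lies at 41245611 to 41286251 on chromosome 22, minus strand (ENSG00000100401). Its level was 157, 152 and 200.7 CPM in NTC DMSO, 134, 159.9 and 101 in dTAG mCherry, 181, 177 and 178 in dTAG FL-NPM1c, and 158, 158 and 176 in dTAG C-body null. The dTAG FL-NPM1c libraries lay close together, while those of dTAG mCherry spread widely below them.

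RANGAP1 rose by 0.44 ± 0.13 in dTAG FL-NPM1c against dTAG mCherry (edgeR adjusted p = 0.033), or by 35.6%. The call ended without any 1 of the 3 dTAG FL-NPM1c libraries or dTAG mCherry replicate 1 or 3 (adjusted p between 0.064 and 0.13). It was smallest without dTAG mCherry replicate 3, at 0.29. Without dTAG mCherry replicate 2 it was 0.60 (adjusted p = 0.0022), and without both libraries that stood apart 0.57 (adjusted p = 0.00052). The estimate in dTAG C-body null against dTAG mCherry was 0.31 ± 0.13 (adjusted p = 0.37), which passed without dTAG mCherry replicate 2, at 0.47 (adjusted p = 0.034), without the low-count filter (adjusted p = 0.037) and without both libraries, at 0.46 (adjusted p = 0.0064). The difference between dTAG FL-NPM1c and dTAG C-body null was 0.13 ± 0.13 (adjusted p = 0.59), so these constructs were not shown to differ. Against NTC DMSO the estimate was -0.36 ± 0.13 in dTAG mCherry (adjusted p = 0.056), 0.08 ± 0.13 in dTAG FL-NPM1c (adjusted p = 0.70) and -0.05 ± 0.13 in dTAG C-body null (adjusted p = 0.82). The first of these passed without NTC DMSO replicate 2 (adjusted p = 0.040) or dTAG mCherry replicate 2 (adjusted p = 0.0039) and without both libraries that stood apart (adjusted p = 0.017). It passed as well with RLE factors (adjusted p = 0.044), without the low-count filter (adjusted p = 0.00021) and by DESeq2 (adjusted p = 0.027).

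Within groups, single libraries moved several of the genes at once. NTC DMSO replicate 3 was below both of its group mates in 7 of the 10 genes and above both in 2. There CSE1L was 0.31 lower on the log2 scale than the mean of its mates, XPO1 0.31 lower and XPO4 0.27 lower, while RANGAP1 was 0.38 higher and XPO6 0.18 higher. In dTAG mCherry replicate 2, CSE1L was 0.34 lower, XPOT 0.23 lower and XPO1 0.21 lower than the mates, and RANGAP1 was 0.45 and XPO6 0.15 higher. In dTAG mCherry replicate 3 the signs were the other way for CSE1L (0.30) and RANGAP1 (-0.53). RANGAP1 thus deviated in the opposite direction to CSE1L and XPO1 in these 3 libraries, which all enter the comparisons above. In dTAG C-body null replicate 3, 7 of the genes were below both mates, with XPO4 lowest at -0.35.

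**Figure D3:**
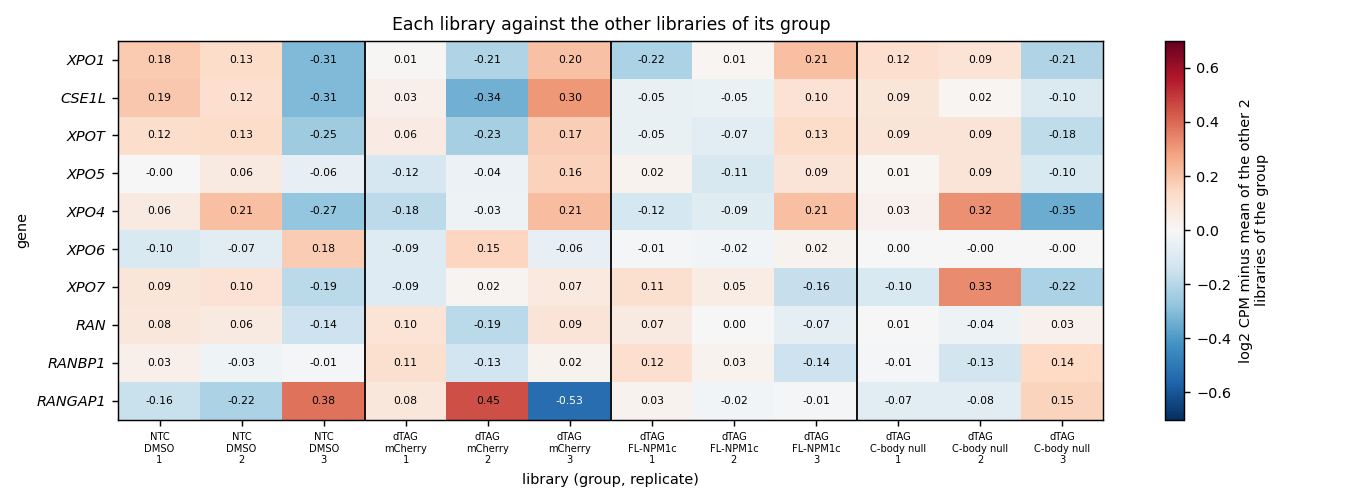
Log2 CPM of each gene (y axis) in each library (x axis, by group) minus the mean of the other 2 libraries of its group. NTC DMSO replicate 3 and dTAG mCherry replicate 2 are blue for CSE1L, XPO1 and XPOT and red for RANGAP1 and XPO6.

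The other genes of the RAN cycle were counted from a list of 10, of which 9 were tested. Against NTC DMSO 3 fell in dTAG mCherry, 2 fell in dTAG FL-NPM1c and 2 fell in dTAG C-body null, and 0 rose. The list medians were -0.19, -0.16 and -0.12. For this list and those below, the share of all genes that fell in these comparisons was 9.69%, 13.3% and 12.4%. RCC1, the exchange factor that loads RAN with GTP, was 194 ± 11.0 CPM (SD, n = 3) in NTC DMSO, 150.0 ± 8.42 CPM in dTAG mCherry, 169 ± 1.28 CPM in dTAG FL-NPM1c and 175 ± 6.31 CPM in dTAG C-body null. RCC1 fell by 0.37 ± 0.07 in dTAG mCherry (edgeR adjusted p = 0.0011) and by 0.20 ± 0.07 in dTAG FL-NPM1c (adjusted p = 0.048), and was -0.15 ± 0.07 in dTAG C-body null (adjusted p = 0.14). The dTAG FL-NPM1c call of RCC1 was at the threshold. It ended with library totals alone (adjusted p = 0.11), without the low-count filter (adjusted p = 0.080) and without NTC DMSO replicate 1 or 3 or any 1 dTAG FL-NPM1c library (adjusted p between 0.077 and 0.13). RANBP9 fell by 0.39 in dTAG FL-NPM1c and by 0.50 in dTAG C-body null, and both calls held under all 12 other settings. Its fall by 0.25 in dTAG mCherry (adjusted p = 0.042) ended with only these groups in the fit (adjusted p = 0.20) and without replicate 1 or 2 of either group (adjusted p between 0.11 and 0.17). RANGRF fell in dTAG mCherry by 0.35, though not with only these groups in the fit (adjusted p = 0.061). RANBP2, the large nuclear pore protein that holds RANGAP1 at the pore, was not called in any comparison and was -0.06 ± 0.10, -0.21 ± 0.10 and -0.04 ± 0.10 against NTC DMSO. The second of these passed without NTC DMSO replicate 3 (adjusted p = 0.046) and without both libraries that stood apart (adjusted p = 0.040). In the comparisons with dTAG mCherry 0 genes of this list were called by edgeR, 3 had an unadjusted p under 0.05 in each, and DESeq2 called 0 for FL-NPM1c and 1 for C-body null. The gene DESeq2 called was RCC1 (adjusted p = 0.044). By edgeR RCC1 was 0.17 ± 0.07 for FL-NPM1c and 0.22 ± 0.07 for C-body null there (adjusted p = 0.10 and 0.23). Without dTAG mCherry replicate 2 both passed (adjusted p = 0.025 and 0.036). With both libraries that stood apart removed, 2 were called higher and 2 lower in each of these comparisons. RCC1 was among the higher, at 0.19 and 0.25 (adjusted p = 0.011 and 0.0061).

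Importins, the carriers for the opposite direction, were lower for many members. Of 16 tested, 7 fell in dTAG mCherry, 10 fell in dTAG FL-NPM1c and 7 fell in dTAG C-body null against NTC DMSO, and 0 rose, with medians of -0.25, -0.30 and -0.26. KPNB1, importin beta, was 687 ± 36.8 CPM in NTC DMSO, 475 ± 30.3 CPM in dTAG mCherry, 560.0 ± 25.1 CPM in dTAG FL-NPM1c and 498 ± 14.9 CPM in dTAG C-body null. It fell by 0.53 ± 0.07, 0.29 ± 0.07 and 0.47 ± 0.07 (edgeR adjusted p = 3.7e-05, 0.0059 and 0.00011). KPNA2, an importin alpha and so a cargo of CSE1L, fell by 0.35 ± 0.08, 0.36 ± 0.08 and 0.42 ± 0.08 (adjusted p = 0.0038, 0.0032 and 0.00081), the first not with only these groups in the fit (adjusted p = 0.056). IPO7 fell by 0.31, 0.40 and 0.42, and KPNA3 by 0.35, 0.32 and 0.41, the KPNA3 call in dTAG mCherry passing under 7 of 12 other settings. IPO11 fell by 0.32 in dTAG mCherry and by 0.45 in dTAG FL-NPM1c, and was also called lower in dTAG C-body null. KPNB1 rose in dTAG FL-NPM1c against dTAG mCherry by 0.24 ± 0.07 (adjusted p = 0.032) and IPO8 fell by 0.35 ± 0.10 (adjusted p = 0.023). The KPNB1 call ended with only these groups in the fit (adjusted p = 0.076) and without any 1 dTAG FL-NPM1c library or dTAG mCherry replicate 1 (adjusted p between 0.057 and 0.20). For dTAG C-body null against dTAG mCherry KPNB1 was 0.07 ± 0.07 (adjusted p = 0.70). For dTAG FL-NPM1c against dTAG C-body null it was 0.17 ± 0.07 (adjusted p = 0.15), which passed with only these groups in the fit (adjusted p = 0.032). KPNA2 was not called against dTAG mCherry or between the constructs. Without both libraries that stood apart KPNA2 fell by 0.16 in dTAG C-body null against dTAG mCherry (adjusted p = 0.033). The IPO8 call ended without dTAG FL-NPM1c replicate 1 or 2 or dTAG mCherry replicate 3 (adjusted p = 0.070, 0.099 and 0.10). TNPO3 fell by 0.30 ± 0.08 in dTAG FL-NPM1c against dTAG C-body null (adjusted p = 0.026), a call that ended without any 1 dTAG FL-NPM1c library or dTAG C-body null replicate 1 or 2 (adjusted p between 0.062 and 0.14). Of 2 further receptor genes, RANBP17 did not pass the filter, and IPO13 was not called, with -0.06, 0.13 and 0.06 against NTC DMSO. Without both libraries that stood apart, IPO13 was called higher in dTAG FL-NPM1c against NTC DMSO and in both comparisons with dTAG mCherry.

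Nucleoporins form the pore through which exportins pass. Of 30 tested, 14 fell in dTAG mCherry, 20 fell in dTAG FL-NPM1c and 18 fell in dTAG C-body null against NTC DMSO, and 0 rose, with medians of -0.25, -0.30 and -0.25. The largest falls were NUP85, NUP50, NUP133 and NUP188 in dTAG mCherry (by 0.43, 0.41, 0.41 and 0.40) and NDC1, NUP35, NUP58 and NUP133 in dTAG FL-NPM1c (by 0.70, 0.63, 0.48 and 0.46). For dTAG C-body null they were NUP54, NDC1, NUP155 and NUP50 (by 0.61, 0.53, 0.50 and 0.48). SEC13 and NUP93 rose in dTAG FL-NPM1c against dTAG mCherry, by 0.27 ± 0.09 and 0.24 ± 0.08 (edgeR adjusted p = 0.044 and 0.038). Each of these calls passed under 4 of 12 other settings. Both ended with only these groups in the fit (adjusted p = 0.080 and 0.077) and without any 1 dTAG FL-NPM1c library or dTAG mCherry replicate 1 or 3 (adjusted p between 0.067 and 0.21).

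**Figure D4:**
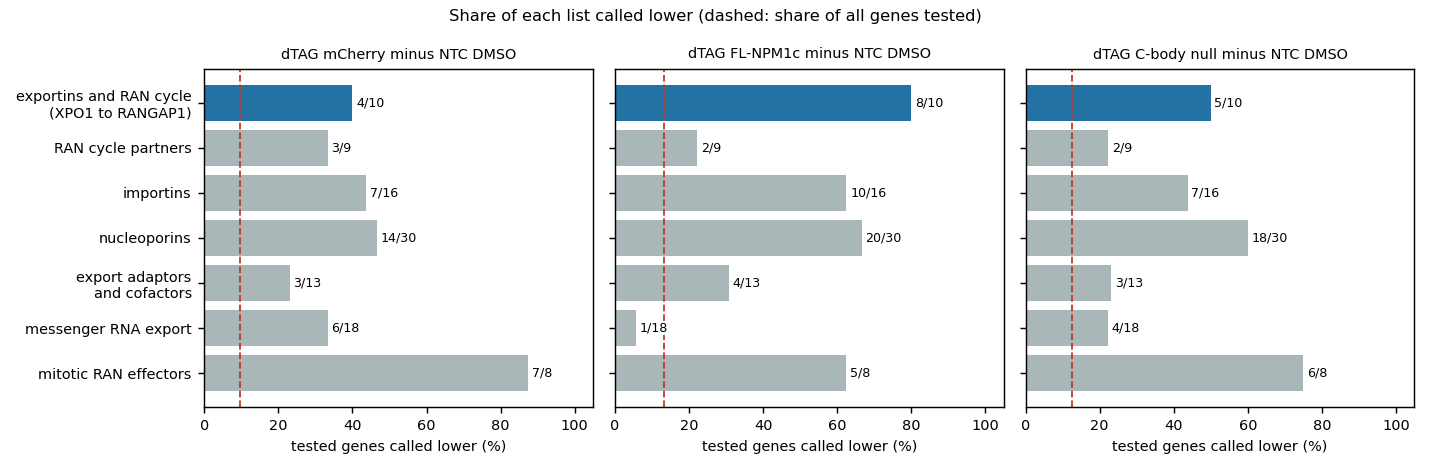
Share of tested genes called lower (x axis, percent) for the 10 exportin and RAN cycle genes and for 6 lists of related genes, in each comparison with NTC DMSO. Labels give called over tested genes, and the dashed line is the share of all 24064 genes, at 9.69%, 13.3% and 12.4%.

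Adaptors and cofactors bind cargo together with XPO1, XPO5 and XPOT or prepare it. Of 13 tested, 3 fell in dTAG mCherry, 4 fell in dTAG FL-NPM1c and 3 fell in dTAG C-body null against NTC DMSO, and 0 rose, with medians of -0.15, -0.22 and -0.11. NMD3, the adaptor with which XPO1 carries the large ribosomal subunit, was not called and was -0.04 ± 0.10, -0.22 ± 0.10 and -0.11 ± 0.10. With both libraries that stood apart removed, NMD3 was called lower in dTAG FL-NPM1c at -0.34 (edgeR adjusted p = 0.0014) and in dTAG C-body null at -0.20 (adjusted p = 0.032), and in dTAG FL-NPM1c against dTAG mCherry at -0.31 (adjusted p = 0.0037). DGCR8 and DROSHA make the microRNA precursors that XPO5 carries. DGCR8 fell by 0.46 ± 0.09 in dTAG mCherry and rose by 0.45 ± 0.09 in dTAG FL-NPM1c against dTAG mCherry (edgeR adjusted p = 0.00087 and 0.0024). Against NTC DMSO DGCR8 was -0.01 ± 0.08 in dTAG FL-NPM1c (adjusted p = 0.97). It fell by 0.25 in dTAG C-body null (adjusted p = 0.039), a call that passed under 4 of 12 other settings. DROSHA fell by 0.24 ± 0.07 in dTAG FL-NPM1c against dTAG mCherry and by 0.28 ± 0.07 against dTAG C-body null (adjusted p = 0.034 and 0.018). The first DROSHA call passed under 5 of 12 other settings and ended without any 1 dTAG FL-NPM1c library or dTAG mCherry replicate 3 (adjusted p between 0.058 and 0.16). The second ended without dTAG C-body null replicate 1 or 2 or dTAG FL-NPM1c replicate 2 (adjusted p = 0.091, 0.062 and 0.12).

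Messenger RNA leaves mainly by NXF1 and NXT1, without RAN, and its factors serve as a comparison. Of 18 tested, 6 fell in dTAG mCherry, 1 fell in dTAG FL-NPM1c and 4 fell in dTAG C-body null against NTC DMSO, and 0 rose. Of all genes 9.69%, 13.3% and 12.4% fell there. The list medians were -0.20, -0.09 and -0.13. ALYREF, an adaptor of NXF1, fell by 0.56 ± 0.12 in dTAG mCherry and by 0.37 in dTAG C-body null (edgeR adjusted p = 0.0027 and 0.031). The second of these calls passed under 6 of 12 other settings. In dTAG FL-NPM1c ALYREF was -0.10 ± 0.12 against NTC DMSO (adjusted p = 0.58), and it rose by 0.47 ± 0.12 against dTAG mCherry (adjusted p = 0.017). The rise ended without dTAG FL-NPM1c replicate 1 or 2 or dTAG mCherry replicate 3 (adjusted p = 0.075, 0.070 and 0.066). NXT1 rose there by 0.29 ± 0.08 (adjusted p = 0.028), which passed under 5 of 12 other settings and ended without replicate 1 or 2 of dTAG FL-NPM1c or replicate 1 or 3 of dTAG mCherry (adjusted p between 0.068 and 0.22). THOC3 fell in all 3 comparisons with NTC DMSO, by 0.40, 0.33 and 0.35. DESeq2 called 12 of the 18 lower in dTAG mCherry against NTC DMSO, where it called 11.9% of all genes lower. In dTAG FL-NPM1c against dTAG mCherry it called 6 of the 18 higher, where edgeR called 2. There DESeq2 called 9.75% of all genes higher.

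Mitotic RAN effectors, some of which RAN releases from importins around chromosomes, fell in most cases. Of 8 tested, 7 fell in dTAG mCherry, 5 fell in dTAG FL-NPM1c and 6 fell in dTAG C-body null against NTC DMSO, and 0 rose, with medians of -0.48, -0.31 and -0.55. TPX2, which RAN frees to nucleate spindle microtubules, fell by 0.51 ± 0.08, 0.39 ± 0.08 and 0.57 ± 0.08 (edgeR adjusted p = 0.00012, 0.0013 and 2.9e-05). KIF14 fell by 0.54, 0.71 and 0.61, and NUSAP1 by 0.49, 0.45 and 0.70. BIRC5 fell by 0.54 in dTAG mCherry and by 0.23 in dTAG FL-NPM1c (adjusted p = 0.019), and was also called lower in dTAG C-body null. BIRC5 rose in dTAG FL-NPM1c against dTAG mCherry, by 0.31 ± 0.07 (adjusted p = 0.0063), and against dTAG C-body null, by 0.32 ± 0.07 (adjusted p = 0.0058). Without dTAG FL-NPM1c replicate 1 both calls ended (adjusted p = 0.063 and 0.058), and the second also without dTAG C-body null replicate 2 (adjusted p = 0.085). HAUS7 rose against dTAG mCherry by 0.42 ± 0.12 (adjusted p = 0.024), but not without dTAG FL-NPM1c replicate 1 or 2 or dTAG mCherry replicate 1 or 3 (adjusted p between 0.052 and 0.10). Between dTAG C-body null and dTAG mCherry 0 of the 95 tested genes of all these lists were called by edgeR, 13 had an unadjusted p under 0.05, and DESeq2 called 2.

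Removal of both libraries that stood apart changed the counts of these lists. In dTAG C-body null against dTAG mCherry, 31 of the 95 were called (19 higher, 12 lower), where 7.48% of all genes were higher and 8.68% lower. Nucleoporins gave 6 higher and 5 lower there, messenger RNA export factors 3 and 3, mitotic effectors 3 and 1, importins 2 and 1, and adaptors 2 and 0. In dTAG FL-NPM1c against dTAG mCherry, 53 of the 95 were called in place of 10 (27 higher, 26 lower), where 15.4% of all genes were higher and 18.7% lower. Nucleoporins gave 7 higher and 9 lower, messenger RNA export factors 8 and 4, adaptors 2 and 7, importins 3 and 4, and mitotic effectors 4 and 0. Between the constructs 9 of the 95 were called in place of 3 (5 higher, 4 lower in dTAG FL-NPM1c), where 7.27% of all genes were higher and 9.48% lower. Against NTC DMSO, 47 of the 95 were called lower in dTAG mCherry in place of 40, 58 in dTAG FL-NPM1c in place of 42 and 49 in dTAG C-body null in place of 40, where 9.77%, 19.9% and 17.0% of all genes were lower. The adaptors called lower were then 10 of 13 in dTAG FL-NPM1c and 8 of 13 in dTAG C-body null, and the messenger RNA export factors 9, 5 and 6 of 18 in the 3 comparisons.

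Markers of monocytes and macrophages mostly rose in the comparisons in which the exportin and RAN genes fell. Of 10, 10 rose in dTAG mCherry, 8 rose and 1 fell in dTAG FL-NPM1c, and 10 rose in dTAG C-body null against NTC DMSO. There 12.9%, 14.6% and 14.1% of all genes rose. Against dTAG mCherry, 5 markers fell in dTAG FL-NPM1c and 2 rose in dTAG C-body null, where 7.95% and 0.216% of all genes did. In dTAG FL-NPM1c against dTAG C-body null 8 markers fell, where 4.86% of all genes fell. Of the exportin and RAN genes, 1, 0 and 0 were called in these comparisons. The summed level of the markers was 504 to 537 CPM in NTC DMSO, 3240 to 3660 CPM in dTAG mCherry, 2860 to 3040 CPM in dTAG FL-NPM1c and 4450 to 4590 CPM in dTAG C-body null. Their part in the lower levels of the exportin and RAN genes was not tested. Summed T and NK cell markers were at 0.775 to 1.39 CPM, with CD3D, CD3E, CD3G and CD2 at 0, and erythroid and megakaryocyte markers were at 0.124 to 0.606 CPM, with HBB at 0. B and plasma cell markers were at 1.57 to 6.46 CPM. Epithelial and fibroblast markers reached at most 67.1 CPM in NTC DMSO and 449 to 719 CPM in the other groups, with EPCAM, CDH1 and COL3A1 at 0. Nearly all of this was FN1, at 59.2 to 717 CPM, while KRT8, KRT18 and COL1A1 reached at most 0.134 CPM and COL1A2 at most 1.55 CPM, and its part was not tested either.

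For 6 of the 10 genes the most similar patterns over the 12 libraries were found among 10636 genes with a mean of at least 10 CPM. The libraries share groups and depth, so these Pearson r of log2 CPM describe the table. XPO1 was nearest to TOP2B (0.99), KIF2A and SGO2 (both 0.98), and CSE1L to NUF2, ZW10 and VRK1 (all 0.99). RAN was nearest to DSCC1, CMC2 and SLC35B1 (all 0.98), and RANBP1 to TXNL4A (0.97), EIF4H and RRP36 (both 0.96). XPO5 was nearest to BMS1 and GEMIN5 (both 0.97) and COA7 (0.95), and XPO6 to PPRC1 and CAD (both 0.97) and RAB8A (0.96).

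Some reads may belong to other genes. USP34-DT lies opposite to part of XPO1, POLR1C opposite to part of XPO5 and TRMT2A opposite to part of RANBP1, and the strand setting of the counting is not given in the sources used here, so reads of these pairs cannot be told apart. USP34-DT was at 21.4% to 25.9% of the XPO1 level in every library, POLR1C at 42.1% to 45.6% of XPO5, and TRMT2A at 16.1% to 28.4% of RANBP1. USP34-DT fell by 0.38 ± 0.13 in dTAG FL-NPM1c and by 0.45 ± 0.13 in dTAG C-body null against NTC DMSO (edgeR adjusted p = 0.035 and 0.017). POLR1C fell by 0.24 ± 0.07 in dTAG mCherry (adjusted p = 0.027), and TRMT2A was not called in any comparison. RAN and RANBP1 also have processed copies elsewhere. RANP1 was at 7.67 to 11.7 CPM, on average 1.43% of RAN, RANBP1P1 at 1.73 to 3.89 CPM, 1.23% of RANBP1, and XPOTP1 at 0.283 to 0.819 CPM. Those copies are uncertain, because reads they share with RAN, RANBP1 or XPOT could be assigned to either.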

How the data were processed

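The authors deposited raw gene counts, whole numbers keyed by Ensembl gene ID, for 12 libraries. Per the labels' protocols a stranded mRNA kit was used on total RNA. Per the submitters' processing notes, the tools were featureCounts, STAR and DESeq2 and the build hg38, all without versions or stated roles. Annotation release, strand setting and treatment of multiply mapped reads: not given in the sources used here. The table had 78936 lines, and 6 broken ones, which held 2 genes, were dropped. Symbols came from a gene name table (61479 IDs) and GENCODE 29 (54), and 17397 IDs had none. Gene positions and exon lengths were taken from GENCODE 29 (GRCh38). Each column was assigned by the library number that its name shares with a sample description, which is an inference. The title of NTC DMSO was followed where its treatment label differs.

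The count test was edgeR 4.0.16 (R 4.3.3), with TMM factors of 0.975 to 1.02 and filterByExpr by group, which removed 0.0795% of counts. One robust quasi-likelihood fit held all 12 libraries with a mean per group, and p was adjusted over 24064 genes by Benjamini and Hochberg. Standard errors were derived from the log2 fold change and its F statistic. The script was tested on simulated data. Replicates differed from each other beyond counting noise and each was kept as 1 replicate. Depth was 30519165 to 59925564 counts, so the spread between libraries, not counting, set the precision. Other settings tried were RLE size factors, no scaling beyond totals, no filter, a fit of the compared groups alone, a replicate block and DESeq2 1.42.0. Omission of 1 library at a time was tried too, for libraries of the compared groups only. Omission of both libraries that stood apart was chosen after seeing the data.

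The 10 genes and all lists were chosen with earlier results of these data known. All 10 are named in every comparison. Of each related list, up to 4 called genes with the largest change and a mean of at least 10 CPM were eligible to be named. RCC1, RANBP2, KPNB1, KPNA2 and NMD3 were named whether or not called, though not with a value in every comparison. A gene named in 1 comparison is given in some of the others, not always in all. The most similar genes are the 3 with the highest Pearson r for RAN, XPO1 and any of the 10 genes whose groups did not overlap in 3 or more comparisons. IPO13, USP34-DT, POLR1C and TRMT2A were added after their values were seen. A few genes of these lists are counted but not reported here by name.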

Additional observations from a re-analysis of the deposited data

How the results depend on the processing

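The count of the 10 genes called moved by over 1.5 times in some settings. In dTAG mCherry against NTC DMSO it was 4, with 7 without the low-count filter, 2 with only these groups in the fit and 3 to 6 with 1 library left out. In dTAG FL-NPM1c against NTC DMSO it was 8, with 4 to 8 when 1 library was left out, and 4 without NTC DMSO replicate 1 or 2. In dTAG C-body null against NTC DMSO it was 5, with 3 to 5 when 1 library was left out. In dTAG FL-NPM1c against dTAG mCherry it was 1, with 0 to 2 when 1 library was left out and 4 (2 higher, 2 lower) without both libraries that stood apart. In dTAG C-body null against dTAG mCherry it was 0, with 1 without the low-count filter, 0 to 1 when 1 library was left out and 3 without both libraries. In dTAG FL-NPM1c against dTAG C-body null it was 0, with 1 without both libraries. The cause was not tested, except that leaving out a library leaves fewer samples.

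With the replicate number as a block, the counts were 4, 6 and 4 against NTC DMSO and 0, 0 and 0 in the other comparisons, and 4 calls ended: RANGAP1 in dTAG FL-NPM1c against dTAG mCherry (edgeR adjusted p = 0.061), XPO1 and XPO5 in dTAG FL-NPM1c (adjusted p = 0.071 and 0.058) and XPOT in dTAG C-body null (adjusted p = 0.069), the last 3 against NTC DMSO. The block also ended the calls given above for RCC1 in dTAG FL-NPM1c, RANBP9 in dTAG mCherry, KPNB1, IPO8, SEC13, NUP93, NXT1 and DROSHA against dTAG mCherry and TNPO3 (adjusted p between 0.050 and 0.088). Same-numbered libraries correlated between -0.31 and 0.16 over 18 pairs, of which 2 were over 0.1, so the numbers were not taken to pair the samples. Of the fold changes of the 10 genes under all alternatives, 718 stayed on their side of the threshold, 24 came to pass it and 38 no longer did. There were 48 changes of sign over all the named genes, none with a called estimate. No setting reversed a call.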
